A study of Homo sapiens with 12 samples.

Results

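miR-375-3p is 1 of the 1636 mature microRNAs (miRNAs) in a count table of small RNA from extracellular vesicles. It was taken by name (hsa-miR-375-3p), with earlier results of these data known. It was counted in all 12 libraries, 2 from each of 6 cancer cell lines. The lines were RCM-1, HT55, SW1116, Car-1, Hutu80 and MDST8, all labelled as colorectal cancer; as background, Hutu80 was derived from a tumour of the duodenum. The labels name no treatment and no engineered allele, so the line was the only factor they gave. Any difference in culture, isolation or library preparation that went with the line cannot be told apart from it. All lines grew in medium with fetal bovine serum, and vesicles were isolated by ultrafiltration and size-exclusion chromatography, per the labels' protocols. The series describes 3 lines of one consensus molecular subtype and 3 of another, but no label used here ties a line to a subtype, so comparisons were made between lines and not between subtypes. Whether a line's 2 libraries stem from separate cultures is not given in the labels; the p-values therefore reflect only the variation between these libraries, possibly technical.

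A miRNA is a short RNA that, loaded into an Argonaute protein, lowers the output of messenger RNAs that pair with its seed, the bases 2 to 8 from its 5′ end. miR-375 is best known from the endocrine cells of the pancreatic islet, where studies in mice found that it limits insulin secretion and that islets without it are short of beta cells. It is also made in gut epithelium and in neuroendocrine cells, and it is often lower in colorectal tumours than in normal mucosa. Vesicle RNA reports what cells release, which need not mirror what they contain, and a lower level in vesicles cannot tell less of the miRNA per vesicle from fewer vesicles that carry it.

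The mature sequence and the hairpin it is cut from are shown because the whole result rests on reads of this short RNA, with the seed in capitals in the mature form and the whole 3p arm in capitals in the hairpin (RefSeq, GRCh38.p14, RNA letters).
miR-375-3p: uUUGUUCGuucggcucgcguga
MIR375 hairpin: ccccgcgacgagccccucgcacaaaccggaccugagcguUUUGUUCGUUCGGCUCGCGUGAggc
The hairpin lies on the minus strand of chromosome 2, from 219001645 to 219001708, and the mature 3p arm from 219001648 to 219001669. The locus is intergenic in GENCODE release 29. The nearest annotated gene is the non-coding AC097468.1, 507 bases away, followed by CFAP65, a gene for a cilium and flagellum protein, at 1138 bases and CRYBA2, a crystallin gene, at 8224 bases. Among the 2370 mature miRNA names in the RefSeq table, 0 others share the 7 seed bases. The first 18 bases of miR-375-3p differed from every 18-base stretch of every other mature sequence in that table at 7 or more positions, so that table holds no near-identical copy with which its counts could be shared. The other arm of the hairpin, miR-375-5p, was not analysed here.

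The miRNAs used below as comparators, or as those whose levels followed or opposed miR-375-3p, are shown next so that their seeds (capitals) can be set beside it.
miR-192-5p: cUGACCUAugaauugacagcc
miR-194-5p: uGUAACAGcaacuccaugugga
miR-200c-3p: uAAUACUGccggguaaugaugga
miR-196b-5p: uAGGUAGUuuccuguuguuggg
miR-1247-5p: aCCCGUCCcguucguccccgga
miR-203a-3p: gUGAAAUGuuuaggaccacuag
miR-30a-5p: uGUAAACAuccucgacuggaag
With miR-375-3p these are 8 mature sequences with 8 distinct seeds. miR-192-5p comes from chromosome 11, miR-194-5p from hairpins on chromosomes 1 and 11, miR-200c-3p from chromosome 12, miR-196b-5p from chromosome 7, miR-1247-5p and miR-203a-3p from chromosome 14, and miR-30a-5p from chromosome 6. None of them lies on the chromosome of MIR375.

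Library totals ran from 71831 to 622800 counts, so that 1 count was worth 13.9 CPM (counts divided by the library's total and put on a fixed scale) in the shallowest library and 1.61 CPM in the deepest. Of the 1636 miRNAs, 318 passed a filter on low counts and were tested. Levels are given as scaled CPM, meaning CPM divided by TMM (trimmed mean of M values) factors of 0.641 to 1.46, and differences as log2 values from the fit of edgeR's quasi-likelihood test to all 12 libraries, with their standard error (SE). The confidence intervals of shares are exact (Clopper-Pearson, 95%) and cover counting error only.

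miR-375-3p was highest in vesicles of RCM-1 and HT55, intermediate in SW1116, lower in Car-1 and Hutu80, and lowest in MDST8; with library totals as the only scaling Car-1 came level with SW1116. RCM-1 libraries held 937 and 2713 counts, or 6125 and 8022 scaled CPM. HT55 libraries held 664 and 1312 counts, or 5767 and 6100 scaled CPM. These 4 libraries lay close together and above the other 8, the highest of which reached 1451 scaled CPM. SW1116 had 548 and 463 counts (1224 and 1451 scaled CPM), and Car-1 had 147 and 151 counts (597 and 755 scaled CPM). Hutu80, the line with the shallowest libraries, had 36 and 68 counts, or 394 and 571 scaled CPM. MDST8 had 80 and 59 counts, or 254 and 185 scaled CPM. The MDST8 libraries, with totals of 339853 and 306811, were among the deeper ones, and both lay below the other 10.

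**Figure D1:**
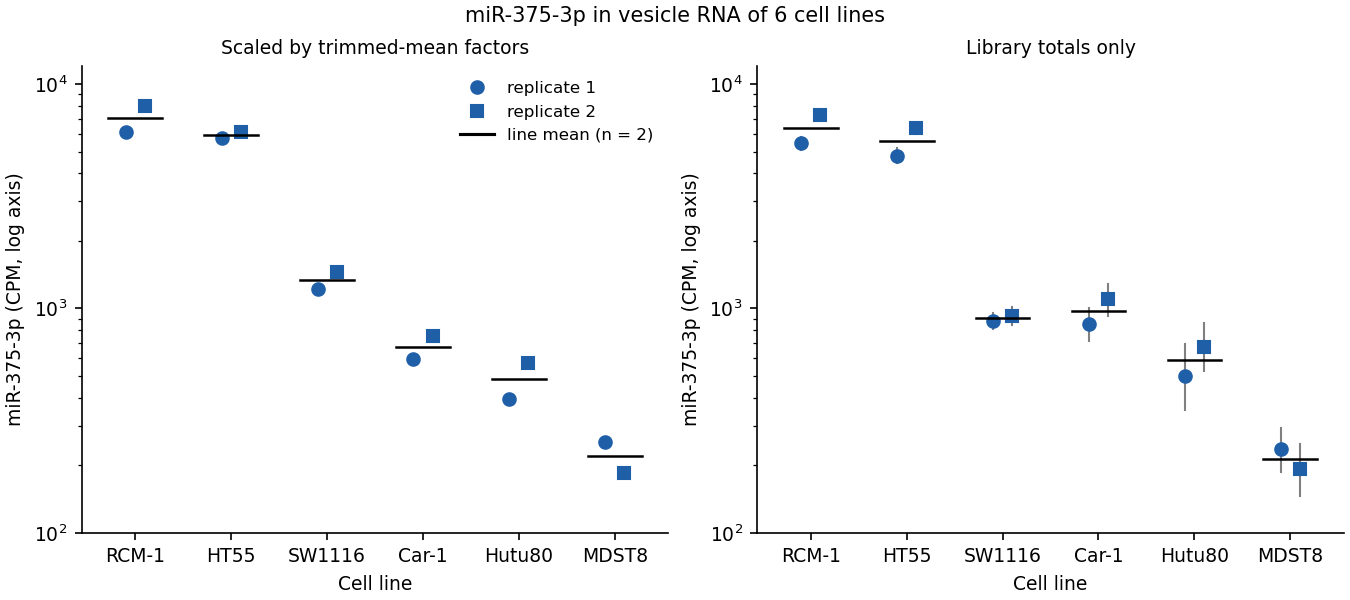
Levels of miR-375-3p (vertical axes, CPM, log scale) in both libraries of each cell line (horizontal axes), scaled by trimmed-mean factors on the left and by library totals only on the right, where grey lines are exact 95% intervals for counting error and black bars are line means (n = 2). RCM-1 and HT55 average 7073 and 5934 scaled CPM and MDST8 220, while SW1116 stands above Car-1 on the left panel and beside it on the right.

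As a share of all counts, miR-375-3p made up 0.636% ± 0.130 (SD, n = 2) in RCM-1 and 0.556% ± 0.110 in HT55. It made up 0.0904% ± 0.0035 in SW1116 and 0.0973% ± 0.0173 in Car-1. The share was 0.0589% ± 0.0124 in Hutu80, and it was smallest in MDST8, at 0.0214% ± 0.0030. The widest interval relative to its share was that of Hutu80 replicate 1, at 0.0501% (0.0351% to 0.0694%), and it reached the share of no library of another line. The ratio of the higher to the lower library was 1.06 in HT55, 1.19 in SW1116, 1.26 in Car-1, 1.31 in RCM-1, 1.37 in MDST8 and 1.45 in Hutu80. On the log2 scale the libraries of HT55 differed by 0.08, against a median of 0.43 over all tested miRNAs in that line. The corresponding values were 0.24 against 0.46 in SW1116, 0.33 against 0.46 in Car-1, 0.39 against 0.44 in RCM-1, 0.44 against 0.42 in MDST8 and 0.53 against 0.43 in Hutu80.

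The place of miR-375-3p in the ranking of the 318 tested miRNAs moved with the line. It ranked 20 in RCM-1, between miR-148a-3p (8033 scaled CPM) and miR-10b-5p (6501), and 21 in HT55, between miR-23a-3p (6648) and miR-100-5p (5738). In SW1116 it ranked 64, between miR-101-3p (1348 scaled CPM) and miR-27b-3p (1290). It ranked 92 in Car-1, between miR-197-3p (689 scaled CPM) and miR-203a-3p (658), and 104 in Hutu80, between miR-584-5p (491) and miR-128-1-5p (482). In MDST8 it ranked 126, between the epithelial miR-203a-3p (221 scaled CPM) and miR-28-5p (207). In MDST8 60.4% of the tested miRNAs still lay below it, against 93.7% in RCM-1.

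The test across all 6 lines asked whether the lines differed at all. miR-375-3p passed it with an adjusted p of 1.71e-12 (edgeR quasi-likelihood F-test, Benjamini-Hochberg over 318 miRNAs), the fifth smallest p of all. The background was high, since 68.2% of tested miRNAs were called in the same test, so the call alone does not set miR-375-3p apart. Its line means on the log2(scaled CPM + 1) scale spanned 5.01, against a median span of 2.38 over the 201 tested miRNAs with a mean of at least 100 scaled CPM. By that span it ranked 29 of 201.

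All 15 pairs of lines were then compared to see which neighbours in the order differed beyond their spread. The adjusted p was below 0.05 in 13 of 15 pairs, and in 13 when the adjustment ran over all 318 miRNAs and all 15 pairs together. Over the same pairs the share of miRNAs called ran from 13.5% to 44.0% (median 39.3%), and the median tested miRNA was called in 5 pairs. Only 4 other tested miRNAs were called in as many pairs or more, named here after their values were seen: miR-92a-1-5p in 14, and miR-100-5p, miR-192-5p and miR-194-3p in 13 each.

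The widest gap was that between RCM-1 and MDST8, at 5.01 ± 0.35 (SE) on the log2 scale (adjusted p = 7.03e-11, with 42.1% of miRNAs called), a fitted ratio of 32.2. HT55 exceeded MDST8 by 4.75 ± 0.35 (1.28e-10, with 39.6% called), a ratio of 27.0. Against Hutu80 the difference was 3.86 ± 0.34 in RCM-1 (2.02e-09, with 41.2% called) and 3.61 ± 0.34 in HT55 (5.25e-09, with 30.8% called). Against Car-1 it was 3.39 ± 0.32 in RCM-1 (1.03e-08, with 42.1% called) and 3.13 ± 0.32 in HT55 (4.77e-08, with 28.9% called). RCM-1 and HT55 themselves were not told apart. They averaged 7073 ± 1341 and 5934 ± 236 scaled CPM (SD, n = 2 each), a log2 difference of 0.25 ± 0.29 (adjusted p = 0.634) whose 95% interval ran from -0.35 to 0.86. The interval thus holds differences of up to 1.81-fold in favour of RCM-1, with 13.5% of miRNAs called in that pair. Scaled by library totals only, the libraries of these 2 lines overlapped. The next step down was the largest between neighbours in the order: HT55 exceeded SW1116 (1338 ± 161 scaled CPM) by 2.15 ± 0.30 (1.23e-05, with 20.4% called), and RCM-1 exceeded SW1116 by 2.40 ± 0.31 (3.67e-06). RCM-1 and SW1116 were among the most similar pairs over all miRNAs, with 13.5% called, and by the size of its difference miR-375-3p ranked 23 of 318 between them.

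Among the 4 lower lines the steps were smaller. SW1116 exceeded Car-1 (676 ± 111 scaled CPM) by 0.98 ± 0.30 (adjusted p = 0.0116, with 39.3% called), a result that depends on the scaling. With library totals as the only scaling SW1116 had 880 and 929 CPM and Car-1 had 851 and 1096 CPM, so the libraries overlapped and the difference was -0.11 (adjusted p = 0.780). The pair also lost its call without Car-1 replicate 1 (0.116) or SW1116 replicate 2 (0.0762). Car-1 and Hutu80 (482 ± 125 scaled CPM) were not told apart, with a difference of 0.48 ± 0.32 (adjusted p = 0.389) and an interval of -0.18 to 1.13, in a pair with 18.2% of miRNAs called. Of the 9 other settings and 12 fits without a library, that pair passed only without Car-1 replicate 1, at 1.11 (0.0367). Car-1 exceeded MDST8 (220 ± 48.6 scaled CPM) by 1.62 ± 0.32 (0.000288, with 41.5% called) and Hutu80 exceeded MDST8 by 1.14 ± 0.33 (0.00860, with 43.1% called). The Hutu80 call ended in 6 of 12 fits that left out a library, with adjusted p-values from 0.0707 without Car-1 replicate 2 to 0.281 without Hutu80 replicate 2. SW1116 exceeded MDST8 by 2.60 ± 0.32 (3.98e-07, with 34.9% called). It exceeded Hutu80 by 1.46 ± 0.32 (0.000556, with 44.0% called), a call that ended with library totals (0.61, adjusted p = 0.128).

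**Figure D2:**
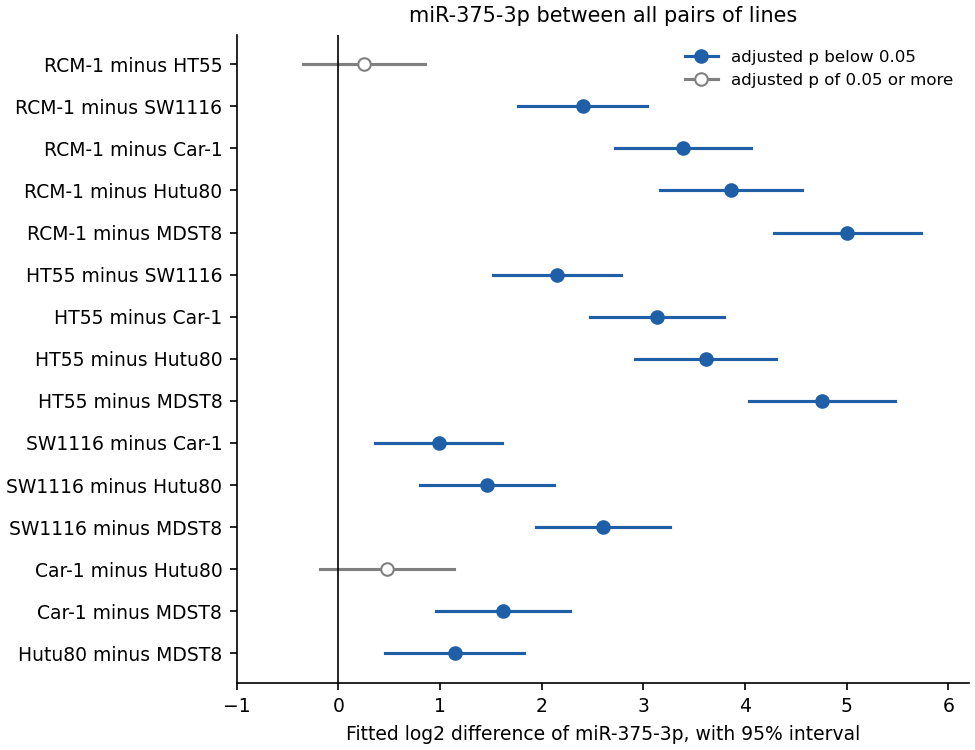
Fitted log2 differences of miR-375-3p (horizontal axis) for all 15 pairs of lines (vertical axis, the line with the higher mean named first), with 95% intervals from the edgeR fit; filled blue points have an adjusted p below 0.05. The open grey points, RCM-1 minus HT55 at 0.25 and Car-1 minus Hutu80 at 0.48, have intervals that cross 0.

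Each line was then compared with the average of the remaining lines (log2 scale). Of the 318 miRNAs, 35.8% were called in that comparison for RCM-1, 24.2% for HT55 and 34.3% for SW1116. The share was 34.6% for Car-1, 39.6% for Hutu80 and 44.3% for MDST8. miR-375-3p was higher in RCM-1 by 2.98 ± 0.19 (adjusted p = 1.08e-11, with 21.1% of miRNAs called higher in that line) and in HT55 by 2.68 ± 0.20 (5.29e-11, with 13.8% called higher and 10.4% lower). It fell by 3.02 ± 0.29 in MDST8 (5.06e-09, with 22.3% called lower and 22% higher) and by 1.65 ± 0.28 in Hutu80 (2.82e-05, with 16.7% called lower). In Car-1 it fell by 1.08 ± 0.25 (0.00155, with 13.5% called lower), a call that ended with library totals (-0.44, adjusted p = 0.163) and without Car-1 replicate 1 (-0.77, 0.101). SW1116 stood at the middle of the lines, with a difference of 0.10 ± 0.23 (0.809) that changed sign with library totals (-0.57). That scaling moved the median of all tested miRNAs in SW1116 to -0.88, against -0.22 with trimmed-mean factors, and in Car-1 to 0.64, against 0.02. Relative to those medians miR-375-3p stood at 0.31 in SW1116 under both scalings, and at -1.09 with library totals and -1.10 with trimmed-mean factors in Car-1. A scaling factor moves all miRNAs of a library alike, so this match was fixed in advance. It does not show which scaling is right or restore the calls lost.

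Ratios to other epithelial miRNAs within a library need no scaling between libraries, and they were used to see whether miR-375-3p followed them. The comparators were miR-192-5p and miR-194-5p, abundant miRNAs of gut epithelium whose hairpins on chromosome 11 share a transcript (miR-194-5p also has one on chromosome 1), and miR-200c-3p, a repressor of ZEB1 and ZEB2, which drive the loss of epithelial character. Against miR-192-5p, miR-375-3p counts came to 39.2% and 60.5% in RCM-1, 103% and 124% in HT55, and 11.4% and 18.7% in SW1116. They came to 65.3% and 64.0% in Car-1, 32.1% and 55.7% in Hutu80, and 35.2% and 36.9% in MDST8. Both SW1116 libraries lay below all 10 others, and both HT55 libraries above all 10 others.

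The same order at the ends was seen with miR-194-5p as the denominator, where the ratio was 204% and 228% in HT55 and 21.3% and 36.8% in SW1116. Against miR-200c-3p the ratio averaged 8.32% ± 0.87 in RCM-1, 6.58% ± 1.53 in HT55, 1.67% ± 0.11 in SW1116 and 3.56% ± 0.96 in Car-1 (SD, n = 2 each). It averaged 6.81% ± 2.69 in Hutu80 and 6.09% ± 0.04 for MDST8. Hutu80 and MDST8, with the fewest counts of both miRNAs, thus held them in a ratio within or overlapping the range of HT55. SW1116 was again the lowest, with both libraries (1.75% and 1.60%) below the other 10. In SW1116 the comparators were high (miR-200c-3p 80348 ± 14865, miR-192-5p 9271 ± 2127 scaled CPM) while miR-375-3p was not. Line means of the ratio spanned 7.55-fold for miR-192-5p, 7.45-fold for miR-194-5p and 4.97-fold for miR-200c-3p, against 32.2-fold for miR-375-3p in scaled CPM. These ratios were not tested, and the low place of SW1116 was noted after the values were seen.

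**Figure D3:**
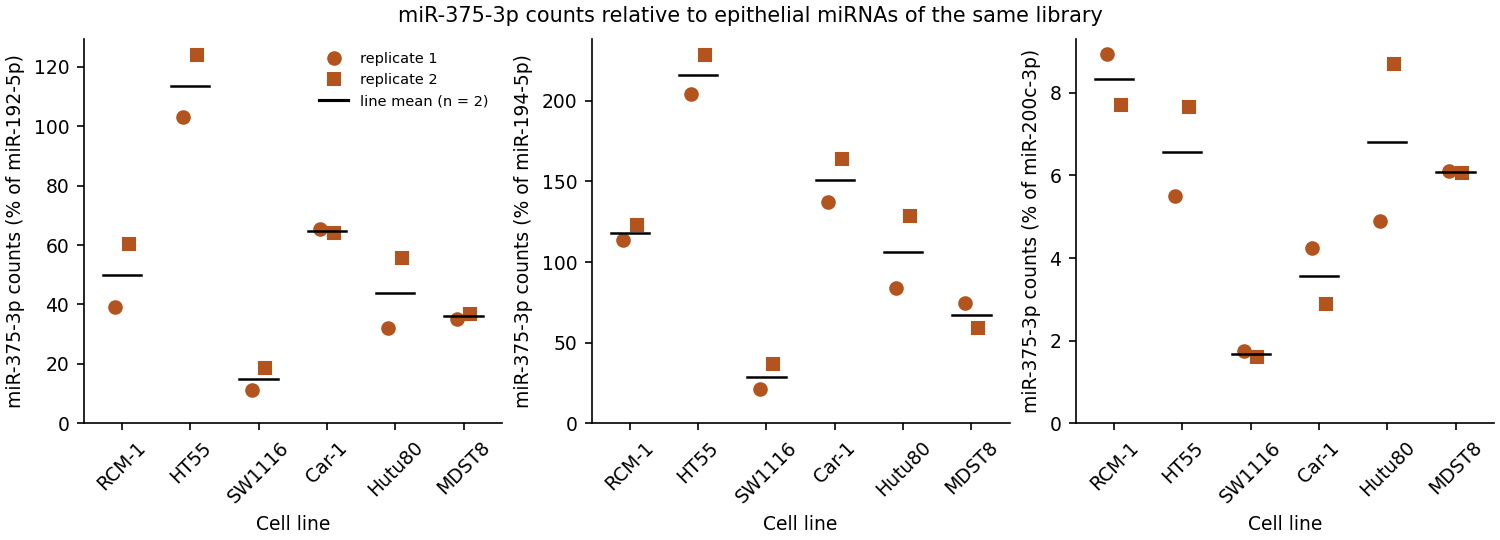
Counts of miR-375-3p as a percentage of the counts of miR-192-5p, miR-194-5p and miR-200c-3p in the same library (vertical axes) for both libraries of each line (horizontal axes), with black bars at the line means (n = 2). SW1116 is lowest in every panel, with libraries at 11.4% and 18.7%, 21.3% and 36.8%, and 1.75% and 1.60%.

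The miRNAs whose line means were most like those of miR-375-3p were named by Pearson's r over the 6 lines, on log2(scaled CPM + 1), among the 200 other tested miRNAs with a mean of at least 100 scaled CPM. With 6 points, and with both libraries behind each point sharing their line, these are descriptions; the median r over the 200 was -0.07 and 10 of them had an r above 0.9. The most alike was miR-320a-3p, a miRNA whose precursor bypasses Drosha in mouse cells, with r = 0.97. It was at 17801 ± 539 scaled CPM in RCM-1 and 19145 ± 9465 in HT55, and at 2762 ± 633 in MDST8. Next came miR-196b-5p (r = 0.95), which lies in the HOXA cluster, at 867 ± 76.7 scaled CPM in RCM-1, 1356 ± 576 in HT55 and 145 ± 14.5 in MDST8. miR-1247-5p (r = 0.93) was at 718 ± 101 scaled CPM in RCM-1 and 2590 ± 526 in HT55, but only 50.6 ± 18.2 in MDST8.

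The others among the 8 were miR-484 and miR-194-3p (r = 0.93 each) and miR-203a-3p, miR-200c-3p and miR-224-5p (r = 0.91 each). miR-203a-3p, a miRNA of stratified epithelia, ordered the 6 lines exactly as miR-375-3p did (Spearman's rho of 1). Its levels placed SW1116 differently: 5378 ± 334 scaled CPM in RCM-1, 5209 ± 1330 in HT55 and 5026 ± 711 in SW1116, within their spread of each other, while SW1116 was below RCM-1 and HT55 for miR-375-3p. Without SW1116 its r was 0.997, and that of miR-200c-3p was 0.980. Without RCM-1 and HT55, the lines farthest from the median, r over the remaining 4 lines was 0.84 for miR-320a-3p, 0.71 for miR-484 and 0.89 to 0.99 for the other 6.

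The most opposite was miR-221-5p (r = -0.97, rho of -1), from the miR-221/222 pair on the X chromosome, whose main arm represses the cell cycle inhibitor p27. It was at 223 ± 26.7 scaled CPM in RCM-1, 347 ± 61.2 in HT55 and 571 ± 80.2 in SW1116. It was at 1006 ± 71.8 scaled CPM in Car-1 and 2211 ± 543 in Hutu80, and it peaked in MDST8 at 3083 ± 54.8. miR-589-5p (r = -0.96), miR-125b-2-3p (-0.91), miR-107 (-0.89) and miR-30a-5p (-0.89) followed. miR-589-5p did not pass the test across lines (adjusted p = 0.178), while the other 4 passed. miR-30a-5p reached 91985 ± 3669 scaled CPM in Hutu80 and 44529 ± 7679 in MDST8, and 2335 ± 589 in RCM-1.

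**Figure D4:**
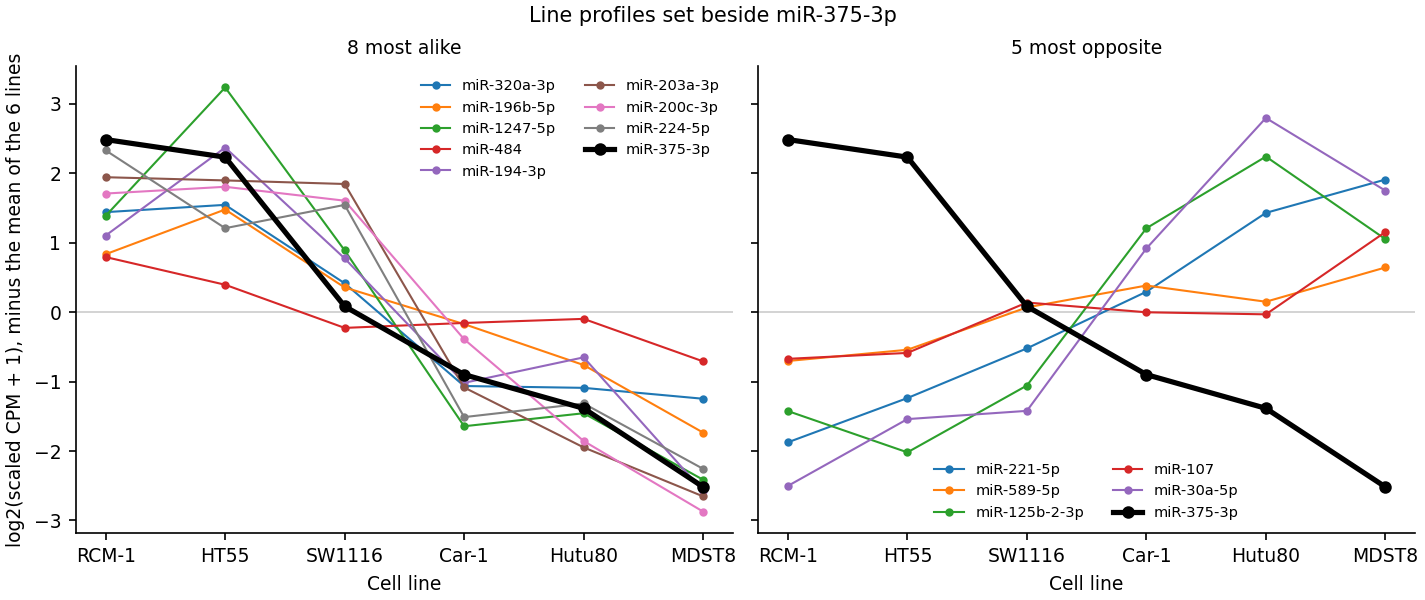
Line means of log2(scaled CPM + 1), each minus its own mean over the 6 lines (vertical axes), for miR-375-3p (black) and the 8 most alike (left) and 5 most opposite (right) miRNAs, by line (horizontal axes). In SW1116 all of the 8 but miR-484 stand above miR-375-3p, with miR-203a-3p, miR-200c-3p and miR-224-5p farthest above. miR-221-5p climbs to 3083 scaled CPM in MDST8, where miR-375-3p is at 220.

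Lists of miRNAs with known tissue ties were set beside miR-375-3p. The gut epithelial list held 7 miRNAs, of which 4 were tested and all 4 were called across lines, against 68.2% of all tested miRNAs. These 4 (miR-192-5p, miR-194-5p, miR-194-3p and miR-215-5p, which shares its seed with miR-192) were all higher in RCM-1 and all lower in MDST8, and 3 of them were higher in SW1116, where miR-375-3p was not. Over all tested miRNAs, 21.1% were called higher in RCM-1, 22.3% lower in MDST8 and 17.6% higher in SW1116. Their median difference was 2.72 in RCM-1 and -2.53 in MDST8, against -0.12 and -0.32 over all tested miRNAs, beside 2.98 and -3.02 for miR-375-3p. miR-215-5p averaged 271 ± 22.5 scaled CPM in RCM-1, 67.3 ± 3.10 in HT55 and 15.8 ± 8.81 in MDST8. The list took 1.85% to 1.93% of counts in RCM-1 libraries and 0.780% to 0.886% in HT55. It took 0.778% to 1.21% in SW1116, 0.208% to 0.253% in Car-1 and 0.189% to 0.235% in Hutu80. MDST8 had the smallest share, 0.0887% to 0.103%, and no line lacked these miRNAs.

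The general epithelial list (5 miR-200 family members, miR-203a-3p and miR-205-5p) had 7 of 7 members called across lines, against 68.2% of all tested miRNAs. In RCM-1, 6 were higher and miR-205-5p, typical of squamous epithelium, was lower, while in MDST8 all 7 were lower and in SW1116 all 7 were higher. The shares over all tested miRNAs were 21.1% higher and 14.8% lower in RCM-1, 22.3% lower in MDST8 and 17.6% higher in SW1116. The level of miR-205-5p was 56.3 ± 12.8 scaled CPM in RCM-1, against 4109 ± 1971 in Car-1. miR-200b-3p, the second most abundant member, averaged 39685 ± 9475 scaled CPM in HT55 and 14268 ± 4602 in RCM-1, and 13604 ± 729 in Car-1. miR-200a-3p was at 1614 ± 288 scaled CPM in RCM-1 and 1847 ± 1049 in Car-1. Other members stood higher in RCM-1 than in Car-1, as miR-375-3p did: miR-200c-3p averaged 86297 ± 25165 scaled CPM in RCM-1 and 20149 ± 8570 in Car-1, and miR-203a-3p 5378 ± 334 in RCM-1 and 658 ± 51.8 in Car-1.

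The endocrine and islet list had 12 members, of which 7 were tested and 6 were called across lines, where 68.2% of all tested miRNAs were called. In RCM-1, miR-7-5p, miR-95-3p and miR-184 were higher and miR-9-5p was lower (median difference of the list -0.65, against -0.12 over all tested miRNAs). In MDST8 the same first 3 were lower, and miR-129-5p and miR-137-3p were higher (median -0.20, against -0.32). The difference of miR-137-3p was larger in Hutu80 (5.26) than in MDST8 (3.05). In HT55 0 members were called higher and 1 lower, and in SW1116 4 were called higher and 1 lower. The 4 calls in RCM-1 became 2 without RCM-1 replicate 1 or without RCM-1 replicate 2, and the 5 in MDST8 became 3 without MDST8 replicate 2. Over all tested miRNAs, 35.8% were called in RCM-1, 44.3% in MDST8, 24.2% in HT55 and 34.3% in SW1116. miR-7-5p, which is enriched in islets and neuroendocrine cells, was at 4596 ± 1357 scaled CPM in RCM-1, 2711 ± 46.8 in HT55 and 5053 ± 43.7 in SW1116. It was at 2026 ± 204 scaled CPM in Car-1 and 2253 ± 466 in Hutu80, with the lowest level in MDST8, 1634 ± 249, a narrower span than that of miR-375-3p. miR-9-5p, a miRNA of the nervous system, was lowest where miR-375-3p was highest, with 271 ± 107 scaled CPM in RCM-1 and 278 ± 61.1 in HT55, and it was highest in SW1116, at 1567 ± 8.88. miR-95-3p was highest in SW1116 (562 ± 162 scaled CPM) and lowest in MDST8 (23.8 ± 20.3), and miR-184 was at 264 ± 185 and 26.9 ± 11.4 in the same lines. Of the 5 members not tested, miR-204-5p had 54 counts over all libraries, miR-153-3p and miR-376a-3p 2 each, and miR-124-3p and miR-410-3p 1 each.

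**Figure D5:**
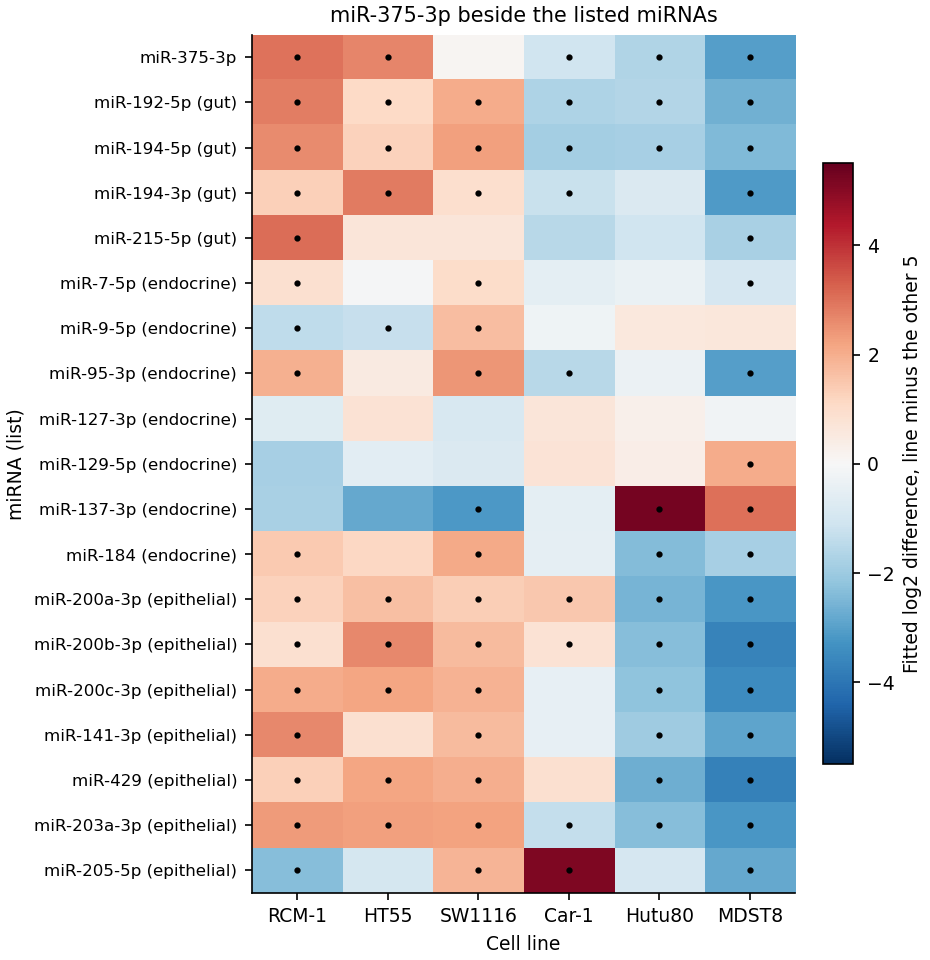
Fitted log2 difference of each line (horizontal axis) from the other 5 for miR-375-3p and the tested members of the gut epithelial, endocrine and general epithelial lists (vertical axis), with red for higher, blue for lower and a black dot where the adjusted p was below 0.05. The gut members share the red and blue ends of miR-375-3p in RCM-1 and MDST8. In SW1116 they run from 0.66 (miR-215-5p, without a dot) to 2.25 (miR-194-5p), against 0.10 for miR-375-3p.

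Lists for other cell types were measured because the medium held serum. The blood cell and liver list (9 miRNAs, 8 tested; miR-486-5p and miR-150-5p were called across lines, and 4 were called without SW1116 replicate 1, against 68.2% of all tested miRNAs called) took 0.232% to 0.306% of counts in RCM-1, 0.512% to 0.587% in HT55 and 0.110% to 0.180% in SW1116. The list took 0.565% to 0.671% in Car-1, 0.428% to 0.572% in Hutu80 and 0.188% to 0.214% in MDST8. The erythroid miR-451a was at 203 ± 82.4 scaled CPM in RCM-1, 372 ± 39.2 in HT55 and 227 ± 38.5 in MDST8 (adjusted p across lines = 0.125). Another erythroid miRNA, miR-486-5p, was at 1599 ± 493 scaled CPM in RCM-1 and 4428 ± 456 in HT55, and 1322 ± 231 in MDST8. The myeloid miR-223-3p was at 392 ± 102 scaled CPM in RCM-1 and 656 ± 117 in HT55, and 346 ± 85.2 in MDST8. The lymphoid miR-150-5p was the member most raised in RCM-1, at 651 ± 116 scaled CPM there and 56.9 ± 22.8 in MDST8.

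The muscle list had 1 tested member of 3, miR-1-3p, and its levels moved with those of miR-375-3p (r = 0.91 over the 6 lines). It was at 465 ± 54.8 scaled CPM in RCM-1 and 504 ± 61.4 in HT55, and at 42.7 ± 11.5 in MDST8, while its partner in muscle, miR-133a-3p, had 29 counts over all 12 libraries. The stromal list took at most 0.0579% of counts in any library and had 2 tested members of 6, of which miR-143-3p was called across lines, where 68.2% of all tested miRNAs were called (0 members were called in 10 of 12 fits without 1 library), with miR-143-3p at 121 ± 41.5 scaled CPM in RCM-1 and 262 ± 1.99 in MDST8, and miR-199a-3p at 34.7 ± 15.6 and 37.9 ± 4.75. The part of these other sources in the levels of miR-375-3p was not tested.

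Of the 7 annotated hairpins within 1 Mb, MIR26B at 598923 bases was the only one with a tested product, miR-26b-5p, with 8193 counts over all libraries. It averaged 4565 ± 1743 scaled CPM in RCM-1 and 2572 ± 426 in MDST8 (r = 0.56 with miR-375-3p). miR-3131, from the nearest hairpin at 56980 bases, had 17 counts in 6 libraries. The remaining detected ones had 15 (miR-6513-3p), 7 (miR-26b-3p), 5 (miR-6810-5p), 2 (miR-153-3p, which a second hairpin elsewhere can also give) and 1 (miR-6810-3p) over all 12 libraries.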

How the data were processed

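Vesicle small RNA of 6 cell lines was sequenced in 2 libraries per line with IsoSeek, a low-input protocol with unique molecular identifiers, per the labels' protocols. Reads were placed on hg38 according to the submitters' processing notes. No source used here names the aligner, annotation release or counter, or says whether identifiers were collapsed. The deposited count table holds raw counts. The authors' second deposited table equals log2(CPM + 1) of those counts (largest difference 5e-14). Groups are the lines. edgeR 4.0.16 (R 4.3.3) was used: filterByExpr kept 318 miRNAs (99.7% of counts), TMM scaling, glmQLFit (robust) and glmQLFTest, with 1 mean per line, no block, Benjamini-Hochberg adjustment per comparison and a threshold of 0.05. The SE is the log2 difference divided by the square root of F. The biological coefficient of variation shared by all miRNAs was 0.304. The procedure was run on simulated counts with 1 dispersion for all miRNAs and differences in 1 line only. That setting is simpler than these data and does not show how the scaling or the pair comparisons behave here. Alternatives were RLE and library-total scaling, no filter, a filter of 10 CPM in 2 libraries, DESeq2 1.42.0, limma 3.58.1 (voom; trend on the deposited log2 values), a replicate block, a fit with the 10 most abundant miRNAs removed, and fits without each library in turn, which assume that the line's remaining library varies like the other lines. The member and lists were chosen with earlier results of these data known. Beside miR-375-3p the text names miRNAs within 1 Mb, the 8 most alike and 5 most opposite, up to 4 tested members per list, 3 comparators and neighbours in rank; miR-129-5p, miR-137-3p, miR-205-5p, miR-133a-3p and those called in the most pairs were named after their values were seen.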

Additional observations from a re-analysis of the deposited data

How the results depend on the processing

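Over 9 other settings and 12 fits without 1 library, miR-375-3p passed across lines in all 21 (adjusted p at most 6.42e-10 and 2.03e-09), as did RCM-1 and HT55 (higher), and Hutu80 and MDST8 (lower), against the other 5. The number of pairs called stayed at 11 to 13. The SW1116 difference, not called, reversed with library totals (-0.57), in limma-trend (-0.56) and without SW1116 replicate 2 (-0.029; -0.029 to 0.29 without a library). The Car-1 call was lost with library totals and in limma-trend (-0.44 each), and ranged from -1.27 to -0.77 without a library. SW1116 minus Car-1 reversed with library totals (-0.11) and in limma-trend (-0.095). SW1116 minus Hutu80 kept its sign but lost its call with library totals (0.61, adjusted p = 0.128) and in limma-trend (0.63, 0.104). Hutu80 minus MDST8 lost its call with no filter (adjusted p = 0.387) and without the 10 most abundant miRNAs (0.0604). Of 315 recomputed pair differences, 12 lost their call with the same sign, 1 gained one, and 2 reversed and also lost their call. The cause was not tested. Of the lists, the blood cell and liver list had 5 members called with library totals and 4 in limma-trend, against 2 (2 to 4 without a library); the stromal list had 0 called with no filter or the 10 CPM filter, against 1 (0 to 1 without a library). Endocrine members called in RCM-1 fell to 2 without either RCM-1 library, against 4. Calls for single lines over all miRNAs fell to 74 for RCM-1 without its replicate 2 (against 114), 43 for HT55 without replicate 1 (against 77), 52 for SW1116 without replicate 2 (against 109) and 63 for Car-1 without replicate 1 (against 110). The named correlations changed in size: with library totals that of miR-484 was 0.70, against 0.93, and over the 12 libraries that of miR-589-5p was -0.74, against -0.96.

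With the replicate number as a block, 223 miRNAs were called across lines, against 217, and miR-375-3p had an adjusted p of 4.95e-14. Whether the numbers pair the libraries could not be decided. Deviations of same-numbered libraries correlated above 0.1 in 5 of 15 pairs of lines (-0.23 to 0.27), though 10 of 12 libraries matched best a library of the same number. The libraries of a line mirror each other around their mean, so these 12 matches are not independent. A batch shared by same-numbered libraries is therefore neither shown nor excluded. The planned test of miR-375-5p was not run. Depth limits Hutu80 most, where 36 counts set the interval.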
